A study of Danio rerio with 8 samples.

Results

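Neurotransmitter receptors are the proteins through which a cell responds to glutamate, GABA, glycine, acetylcholine, serotonin, noradrenaline and dopamine. Their genes were followed here in cells of the zebrafish pineal complex with and without knockdown of tbx2b, a T-box transcription factor gene needed to form the parapineal organ. The set holds every tested row of the authors' table whose symbol begins with a receptor name: gria, grin1 to grin3, grik, grm with a digit, gabr, gabbr, glra, glrb, chrn, chrm, htr1 to htr7, adra, adrb or drd1 to drd4. This gave 50 of 18954 tested genes. One of the 50, adrbk2, codes for a kinase that phosphorylates adrenergic receptors and not for a receptor, which leaves 49 receptor genes. A further 55 rows with such symbols were listed but not tested by the authors.

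Kaede-positive cells were sorted from heads of Tg(flhBAC:kaede)vu376 embryos at 24 to 26 hours post-fertilization. In this line the photoconvertible protein Kaede is driven by regulatory sequence of flh, a homeobox gene of the pineal anlage, so any head cell with Kaede can enter the sort, and both groups carry the transgene. The wild-type group had 4 libraries from embryos that were not injected. The tbx2b knockdown group had 4 libraries from embryos given a splice morpholino, 2 at 5 ng and 2 at 6 ng. By the labels each RNA sample was sequenced as a pair of technical replicates, so each group rests on 2 RNA samples. Among knockdown libraries the RNA sample and the dose cannot be told apart, and the injection and the knockdown cannot be told apart in the comparison of the groups. The question is which receptor genes these cells transcribed and whether their levels differed after the knockdown.

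The authors' table holds 1 value per gene and group, with no unit named, which is taken here as FPKM. FPKM counts fragments mapped to a gene, scaled to transcript length and library size, so levels can be set side by side between genes. No value per library is given, so no error over replicates can be given, and the depth is unknown. Below, FPKM values are the authors' group values, and a gene is called changed only where the authors' test, adjusted over all tested genes, flagged it. In a sorted pool, fewer cells of a type and less RNA per cell cannot be told apart. The targeted gene tbx2b was at 17.4 FPKM in wild-type cells and 18.3 FPKM in the knockdown, and since misspliced transcripts are still counted, this does not check the knockdown. Flh, whose regulatory sequence drives Kaede, was at 238 FPKM in wild-type cells and 129 FPKM in the knockdown. It was not called (authors' deposited table, q of 0.0986), and its bearing on the sort was not tested. Of 14 neuronal markers 12 were tested, with elavl3 at 123 and 117 FPKM. The other neuronal markers were gap43, listed at 0 in both groups, and nefm, listed at 0.174 and 0.160 FPKM. Of 10 photoreceptor markers 6 fell, against 0.332% of all tested genes called lower. The summed level of the 10 was 112 FPKM in wild-type cells and 44.8 FPKM in the knockdown.

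The receptors fall into a pair of structural groups. Ionotropic receptors are channels built from several subunits that open when the transmitter binds, and they act in milliseconds. The AMPA, kainate and NMDA receptors for glutamate and the nicotinic receptors for acetylcholine pass cations, while GABA-A, rho and glycine receptors pass chloride. The other group, the metabotropic receptors, is coupled to G proteins and acts more slowly. In the mammalian pineal gland noradrenaline acting on beta-adrenergic receptors drives melatonin synthesis, whereas the fish pineal organ senses light directly through its own photoreceptors, which contact projection neurons.

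No receptor gene was called changed. The authors' significance flag was set for 0 of the 50 members, against 0.438% of all tested genes (0.106% higher and 0.332% lower in the knockdown), so that fewer than 1 call would stand among 50 genes at that share. The smallest q among members was 0.88 in the authors' deposited table, that of adra2da. Unadjusted p was under 0.05 for 1 member, lower in the knockdown, in the authors' deposited table, against 5.53% of all tested genes (1.77% higher and 3.76% lower). A share at or under the background is no result about the members. With group values alone, the lack of a call does not show that levels were equal.

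Most members lay somewhat lower in the knockdown. The log2 fold change of knockdown over wild-type was below 0 for 36 of the 50 members and above 0 for 14, with a median of -0.20. Over all tested genes 54.1% lay below 0 and the median was -0.03. Without the kinase the median over the 49 receptor genes was -0.19, with quartiles of -0.50 and 0.05. Genes with low values spread more widely, so the comparison was repeated by level. Among the 30 receptor genes with a mean under 1 FPKM the median was -0.30, where all tested genes in that range had a median of -0.12. Among the 19 at 1 FPKM or more it was -0.16, where all tested genes in that range had a median of -0.02. Rescaling both groups to TPM, which adds 0.11 to every log2 fold change, takes the median of the 50 members to -0.092 and that of all tested genes to 0.07. The share above 0 then goes from 28% to 36% of members and from 45.9% to 59.8% of all tested genes.

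Receptor transcripts were scarce. The median of the mean level was 0.66 FPKM over the receptor genes, against 5.50 FPKM over all tested genes. A mean under 1 FPKM was found for 30 of the 49, against 3215 of all 18954 tested genes. Of the 49 receptor genes 18 were at 1 FPKM or more in both groups, 2 in exactly 1 group and 29 under 1 FPKM in both. The highest was gabrd, and next in order of mean level came glrbb, gria2a and chrnb3a. These 4 genes code for subunits of receptors for GABA, glycine, glutamate and acetylcholine. The untested rows had a highest value of 0.403 FPKM in either group, which overlaps the lowest tested members.

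**Figure D1:**
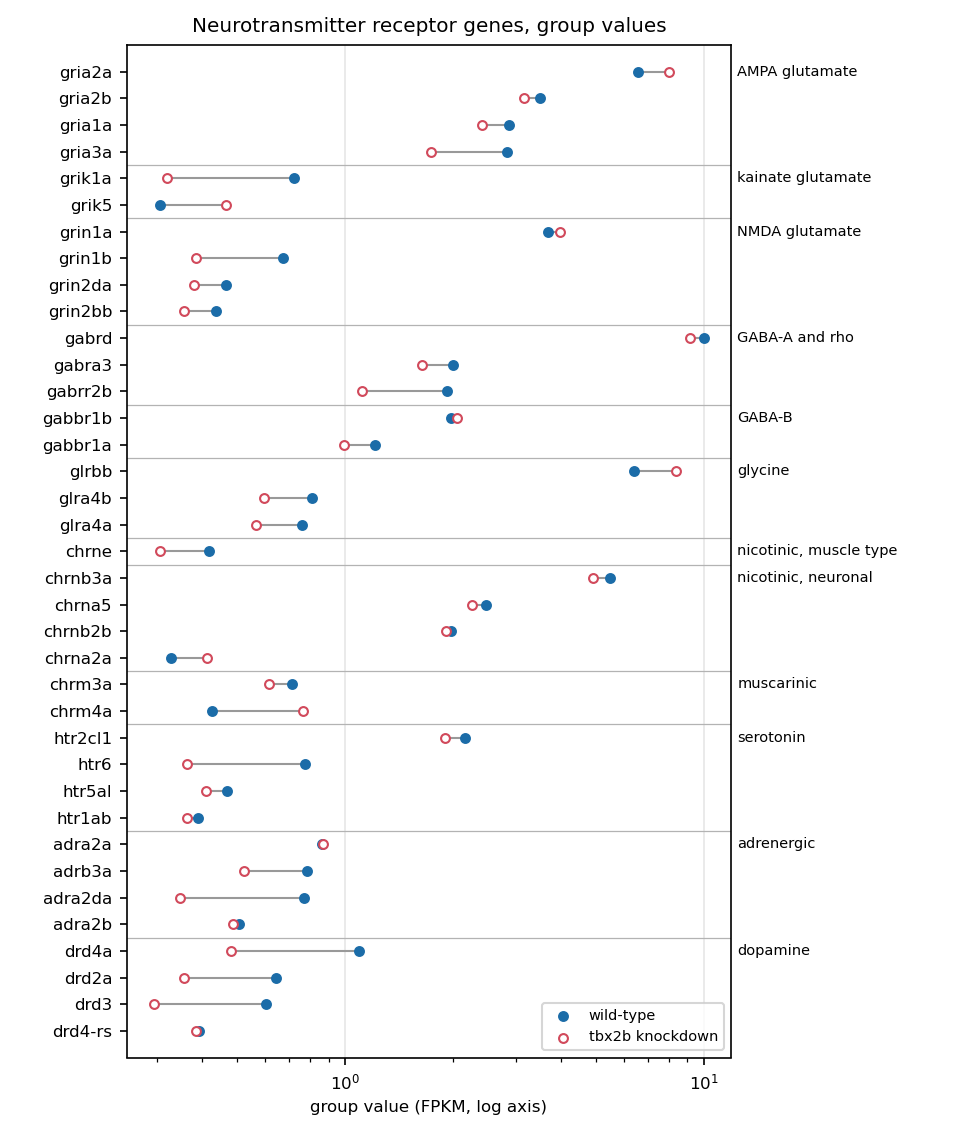
Group values of 37 of the 49 tested receptor genes, up to 4 leading ones a class, in FPKM on a log axis, wild-type as filled and knockdown as open circles, joined by a line for each gene, and grouped by receptor class. The 4 highest genes, gabrd, glrbb, gria2a and chrnb3a, have the highest values, and 21 of the 37 genes stay under 1 FPKM in both groups; each circle is 1 deposited group value, so there are no error bars.

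AMPA receptors carry fast excitatory transmission, and 7 of their 8 listed subunit genes were tested. Together they reached 19.5 FPKM in wild-type cells and 19.1 FPKM in the knockdown, or 24.7% and 26.0% of the summed level of all receptor members. The GluA2 subunit, whose edited form makes the channel nearly impermeable to calcium, is coded by gria2a and gria2b. Gria2a (ENSDARG00000070173, Zv9 chromosome 1, 20115713 to 20192523) was the highest, at 6.56 FPKM in wild-type cells and 8.00 FPKM in the knockdown. Its share of the summed AMPA level was 33.6% in wild-type and 42.0% in the knockdown. Gria2b was at 3.49 and 3.15 FPKM, so the GluA2 genes led the class in both groups. The GluA1 gene gria1a was at 2.86 and 2.41 FPKM.

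The widest difference within this class was that of gria3a, a GluA3 gene on chromosome 5, at 2.82 FPKM in wild-type cells and 1.74 FPKM in the knockdown (authors' deposited table, p of 0.273). The other GluA3 copy, gria3b, was at 0.770 and 0.993 FPKM. The median log2 fold change of the 7 genes was -0.15, with 4 below 0 and 3 above. Gria4b was at 1.94 and 1.62 FPKM, while its partner gria4a was listed at 0.0747 and 0.0646 FPKM and was not tested. Reads of overlapping genes can enter the values of this class. The locus of gria2a is shared with CT573191.1, at 19.6 and 20.9 FPKM. That of gria4b is shared with CR854959.1, at 16.6 FPKM in wild-type cells and listed at 0 in the knockdown, and that of gria3b with BX511226.2, listed at 0 in wild-type cells and at 23.1 FPKM in the knockdown. For gria2a, gria4b and gria3b the overlapping row thus differed in the same direction as the receptor gene, and its part in their values was not tested. The authors did not test BX511226.2 itself.

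Kainate receptors tune transmission before and after the synapse, and their genes were low. Grik1a, coding for a subunit that forms channels by itself, was at 0.720 FPKM in wild-type cells and 0.318 FPKM in the knockdown, a 2.26-fold lower value that was not called (authors' deposited table, p of 0.0615). Grik5 codes for a subunit that needs such a partner, and was at 0.306 and 0.465 FPKM. The order of these genes was thus reversed between the groups, with both under 1 FPKM in each and neither called. Rows outside the name rule for the same subunits kept their order. GRIK1 (1 of 2) was at 0.682 and 0.660 FPKM, and GRIK5 (1 of 2) at 0.901 and 0.854 FPKM. A further kainate row, GRIK3, was at 0.475 and 0.284 FPKM. NMDA receptors, which open only when glutamate binds and the membrane is depolarized, need the GluN1 subunit. Its gene grin1a made up 65.7% of the summed NMDA level in wild-type and 72.0% in the knockdown, at 3.69 and 3.96 FPKM. The second copy, grin1b, was at 0.673 and 0.384 FPKM (authors' deposited table, p of 0.0811).

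The partner subunits of GluN1 that bind glutamate were far lower than grin1a. Grin2bb was at 0.438 and 0.357 FPKM, grin2da at 0.467 and 0.380 FPKM, and the other GluN2 genes under the name rule, grin2aa, grin2ab, grin2ca and grin2db, were not tested. The median log2 fold change of the 5 tested NMDA genes was -0.30. It turned to 0.10 when only genes at 1 FPKM or more were kept, which leaves grin1a alone. No metabotropic glutamate receptor row with a symbol that fits the rule was tested, and among them grm3 was listed at 0.0245 and 0.0231 FPKM.

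GABA-A receptors are chloride channels of 5 subunits, and the rho subunits form channels known from the retina. Gabrd (ENSDARG00000059763, chromosome 8, 55308111 to 55324076), coding for the delta subunit of receptors outside the synapse that give a steady current, was the highest receptor gene of all. It was at 10.0 FPKM in wild-type cells and 9.17 FPKM in the knockdown, and made up 50.9% and 55.4% of the summed GABA-A and rho level.

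Among the ligand-binding alpha and the rho subunits, gabra3 was at 2.01 and 1.64 FPKM. Gabrr2b, a rho subunit gene on chromosome 20, was at 1.92 and 1.11 FPKM, a 1.73-fold lower value (authors' deposited table, p of 0.0624). Beside it on the chromosome lies gabrr1, which was not tested and was listed at 0.257 and 0.127 FPKM. Of the 8 tested genes 7 lay below 0, with a median log2 fold change of -0.33. The exception was gabra6a, at 0.177 and 0.379 FPKM, whose locus is shared with nudcd2 at 29.1 and 27.7 FPKM.

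Both GABA-B genes that were tested code for the GABA-binding GABA-B1 subunit of this G protein-coupled receptor. Gabbr1b was at 1.98 and 2.05 FPKM and gabbr1a at 1.22 and 0.992 FPKM. The gene of the obligatory partner subunit, gabbr2, was listed at 0.289 and 0.280 FPKM and was not tested. In the glycine receptors, glrbb codes for the beta subunit that ties the channel to gephyrin at the synapse. It was at 6.39 FPKM in wild-type cells and 8.35 FPKM in the knockdown, 1.31-fold higher and not called (authors' deposited table, p of 0.188). The ligand-binding alpha subunits were an order of magnitude lower and leaned the other way. Glra4a was at 0.760 and 0.566 FPKM and glra4b at 0.811 and 0.593 FPKM.

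Nicotinic receptors of neurons combine alpha and beta subunits. Chrnb3a (ENSDARG00000052764, chromosome 1, 21162892 to 21186136), coding for an accessory beta subunit, led the class at 5.48 FPKM in wild-type cells and 4.90 FPKM in the knockdown. Chrna5, coding for an accessory alpha subunit that in mammals is prominent in the habenula, was at 2.47 and 2.26 FPKM. Chrnb2b, whose product forms the common receptor core with an alpha subunit, was at 1.97 and 1.91 FPKM. The 3 genes kept this order in the knockdown. Genes under the rule for alpha subunits that can bind acetylcholine with it were low, with chrna2a at 0.327 and 0.412 FPKM and chrna3, both chrna4 rows, chrna6 and chrna7 not tested. The median log2 fold change of the 5 tested genes was -0.04, which became 0.06 after rescaling to TPM.

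The muscle-type nicotinic receptor works at the neuromuscular junction. Chrne, coding for its adult-type epsilon subunit, was at 0.419 and 0.305 FPKM. The other 5 subunit genes, chrna1, chrnb1, chrnb1l, chrnd and chrng, were not tested, and the highest of them was chrna1, listed at 0.403 and 0.315 FPKM. Of 17 skeletal muscle markers 6 were tested and none was called, with 3 above 0 and 3 below. The summed level was 14.8 FPKM in wild-type cells and 15.5 FPKM in the knockdown, most of it from actc1b at 9.20 and 8.26 FPKM. Single markers differed in opposite directions, with myod1 at 0.865 and 0.244 FPKM and tnnc2 at 0.873 and 1.84 FPKM (authors' deposited table, p of 0.00425 and 0.036).

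The tested G protein-coupled receptors under the name rule were low as a group. They include no metabotropic glutamate receptor, and the GRM2 rows outside the rule, given below, were higher. Of the 18 tested members 14 lay below 0, with a median log2 fold change of -0.20. Of the 31 tested channel subunit genes 21 lay below 0, with a median of -0.17. No difference between the groups of receptors was tested. Among the muscarinic receptors for acetylcholine, chrm3a, which couples to phospholipase C, was at 0.711 and 0.615 FPKM. Chrm4a, which inhibits adenylyl cyclase, was at 0.427 and 0.765 FPKM, a 1.79-fold higher value that was not called (authors' deposited table, p of 0.0976).

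Serotonin is the precursor of melatonin and is abundant in the pineal organ. All 5 tested serotonin receptor genes lay below 0, with a median log2 fold change of -0.19, although htr1ab turned to 0.0016 after rescaling to TPM. Htr2cl1, related to the receptor 2C that acts through phospholipase C, was the highest at 2.16 and 1.90 FPKM. Htr6, coding for a receptor that raises cyclic AMP, was at 0.773 FPKM in wild-type cells and 0.364 FPKM in the knockdown, 2.13-fold lower (authors' deposited table, p of 0.0538). Htr5al, of the type 5 receptors, was at 0.468 and 0.411 FPKM and htr1ab, coding for a type 1A receptor that inhibits adenylyl cyclase, at 0.389 and 0.362 FPKM. Htr5a, also of type 5, was at 0.399 and 0.211 FPKM. Htr6 was the one serotonin receptor member with a difference above 2-fold, and outside the name rule the row HTR2A (1 of 2) was at 0.733 and 0.328 FPKM (authors' deposited table, p of 0.317).

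**Figure D2:**
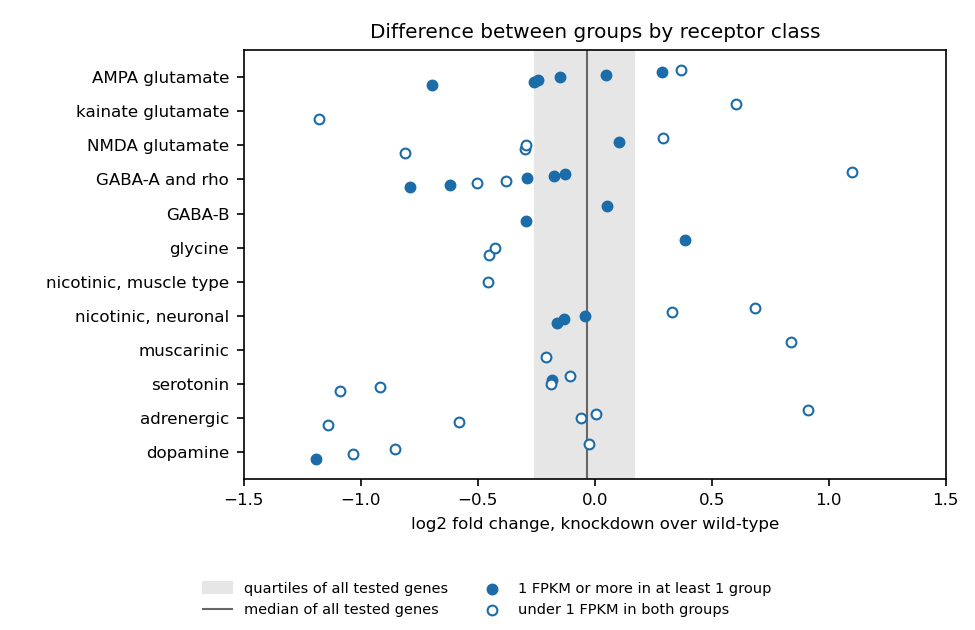
The log2 fold change of knockdown over wild-type for each of the 49 receptor genes by class, filled at 1 FPKM or more in at least 1 group and open below that. The band spans the quartiles of all tested genes and the line their median of -0.03; the serotonin and dopamine genes all lie below 0 on this FPKM scale (htr1ab and drd4-rs turn above it after rescaling to TPM), and the points outside a log2 fold change of 1 are nearly all open circles.

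Adrenergic receptors respond to noradrenaline. Adra2da (ENSDARG00000091277, chromosome 14, 789510 to 790737), coding for an alpha-2 receptor that inhibits adenylyl cyclase, was the one member with an unadjusted p under 0.05. It was at 0.767 FPKM in wild-type cells and 0.348 FPKM in the knockdown, 2.20-fold lower (authors' deposited table, p of 0.0452 and q of 0.88). The other tested alpha-2 members were nearly level, with adra2a at 0.866 and 0.869 FPKM and adra2b at 0.506 and 0.486 FPKM. Of the alpha-2 genes that were not tested, adra2c was listed at 0.308 and 0.175 FPKM and adra2db at 0.0159 and 0.0166 FPKM. Adrb3a, a beta receptor gene, was at 0.784 and 0.524 FPKM. The alpha-1 gene adra1ab leaned the other way, at 0.230 and 0.433 FPKM (authors' deposited table, p of 0.138). Of the 5 tested adrenergic members 3 lay below 0 and 2 above. Outside the name rule, ADRA1B (1 of 2) was at 1.94 and 2.05 FPKM, ADRA1D at 0.811 and 1.22 FPKM and ADRA1A (1 of 2) at 0.630 and 0.366 FPKM. The beta-1 gene adrb1, the receptor type that acts in the mammalian pineal gland, is carried by 2 rows, both not tested and both listed under 0.1 FPKM. The kinase gene adrbk2, for which the fold is not that of a receptor, was at 16.2 and 10.9 FPKM (authors' deposited table, p of 0.124).

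Dopamine receptors of the D2 type inhibit adenylyl cyclase, and in the rat drd4 is expressed in the pineal gland and in photoreceptors. All 4 tested dopamine receptor genes belong to this type and lay below 0, with a median log2 fold change of -0.94, although drd4-rs turned to 0.080 after rescaling to TPM. Drd4a (ENSDARG00000038363, chromosome 25, 5275630 to 5284563) had a level of 1.097 FPKM in wild-type cells and 0.481 FPKM in the knockdown, the largest fold among the receptor members at 2.28-fold lower (authors' deposited table, p of 0.0605). Drd3 was at 0.602 and 0.294 FPKM (authors' deposited table, p of 0.0619) and drd2a at 0.643 and 0.356 FPKM (authors' deposited table, p of 0.104). The related gene drd4-rs was at 0.392 and 0.386 FPKM, so the lower values concerned 3 of the 4. With 1 added to each FPKM value the median of the 4 shrank to -0.29, because these genes are low.

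The D1-type gene drd1 was not tested. Of the 10 photoreceptor markers given above, 6 fell and all 10 lay below 0. Of 7 pigment cell markers 4 fell, with a summed level of 145 FPKM in wild-type cells and 42.3 FPKM in the knockdown. The marker list of the retinal bipolar cell, a neuron that photoreceptors contact, had 4 tested members, none called, with a median log2 fold change of -0.58. The neuron markers were mixed, with none of 12 called, 7 above 0 and 5 below. Their median log2 fold change was 0.19, and elavl3 was among those below. Among 8 glia and progenitor markers 1 fell, with a summed level of 721 FPKM in wild-type cells and 497 FPKM in the knockdown. Most of that difference was the 1 that fell, fabp7a, at 330 and 144 FPKM, while 3 of the 8 lay above 0, gfap at 82.9 and 94.1 FPKM among them. Heart markers and endothelial markers went up, with 4 of 5 and 4 of 8 risen and summed levels of 2.75 and 102 FPKM in wild-type cells against 16.2 and 191 FPKM in the knockdown. Over all tested genes 0.106% were called higher and 0.332% lower. No photoreceptor, pigment, glia, heart or endothelial marker was at 0 in both groups. The part of any of these cell types in the receptor values was not tested.

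Differences of 2-fold or more sat at low levels. Of the 49 receptor genes 6, or 12.24%, reached an absolute log2 fold change of 1, 5 of them lower and 1 higher, against 5.57% of all tested genes (3.74% lower and 1.83% higher). All 6 were among the 30 with a mean under 1 FPKM, where they made up 20%, against 17.9% of all tested genes in that range. The 5 lower were drd4a, grik1a, adra2da, htr6 and drd3, and the higher one was gabra6a. Drd4a alone among the 6 reached 1 FPKM in either group. Of the 20 genes at 1 FPKM or more in at least 1 group, 16 lay within a log2 fold change of 0.5 in either direction.

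Zebrafish carry many receptor genes in duplicate, and most pairs had a leading copy. Of 23 pairs with symbols ending in a and b, both copies were tested in 7, 1 copy in 12 and neither in 4. In all 7 pairs with both tested, the copy that was higher in wild-type was also higher in the knockdown. The grin1 pair had a 5.47-fold ratio in wild-type and a 10.3-fold ratio in the knockdown. The ratio of the glra4 copies was 1.07 and 1.05, so that pair had no clear leader. For glrb the leading copy glrbb was at 6.39 and 8.35 FPKM, while glrba was listed at 0.213 and 0.136 FPKM. The values of a pair are the least certain where near-identical copies share reads, and the rule by which such reads were assigned was not given in the sources used here.

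Some receptor genes lie side by side on the Zv9 genome without sharing a level. Gria2a and glrba are neighbours on chromosome 1, and gria2b and glrbb are neighbours on chromosome 14 between 36912245 and 37033972. On chromosome 1 the leading gene is the glutamate receptor gene, at 6.56 FPKM in wild-type against 0.213 FPKM for glrba, while on chromosome 14 it is the glycine receptor gene glrbb at 6.39 FPKM against 3.49 FPKM for gria2b. On chromosome 1, chrnb3a at 5.48 FPKM stands between 21057719 and 21367770 with chrna6 at 0.109 FPKM and chrnb2a at 0.217 FPKM. In all, 13 such groups with gaps of at most 100 kb held 32 of 161 receptor rows.

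The name rule is written in small letters and so leaves out receptor rows that the table lists under capital symbols or clone names. They comprise 20 tested rows with capital symbols and 5 tested rows that only the table of gene names pairs with a receptor symbol. None of these 25 was called, 3 had an unadjusted p under 0.05 in the authors' deposited table, and their median log2 fold change was -0.27. Over all tested genes 5.53% had such a p and the median was -0.03. All 3 were lower in the knockdown, and they were chosen for mention after their values were seen.

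The metabotropic glutamate receptors are found almost wholly among these rows. The row GRM2 (2 of 2), coding for a receptor that inhibits adenylyl cyclase and in mammals limits glutamate release, was at 8.97 FPKM in wild-type cells and 5.00 FPKM in the knockdown (authors' deposited table, p of 0.00315 and q of 0.265). Its counterpart GRM2 (1 of 2) was at 6.79 and 5.25 FPKM. In wild-type cells gabrd was the only receptor member above either GRM2 row. The row grma was at 3.57 and 1.89 FPKM (authors' deposited table, p of 0.00575 and q of 0.35). The table of gene names pairs it with GRM6, the receptor through which retinal ON bipolar cells read photoreceptors. Another GRM6 row, GRM6 (1 of 2), leaned the other way at 0.323 and 0.433 FPKM. Both rows share a locus with another row, whose part in the values was not tested. The third row with an unadjusted p under 0.05, si:ch211-39a7.1, is paired with the nicotinic subunit name chrna11. It was at 1.95 and 0.794 FPKM (authors' deposited table, p of 0.00365 and q of 0.279).

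**Figure D3:**
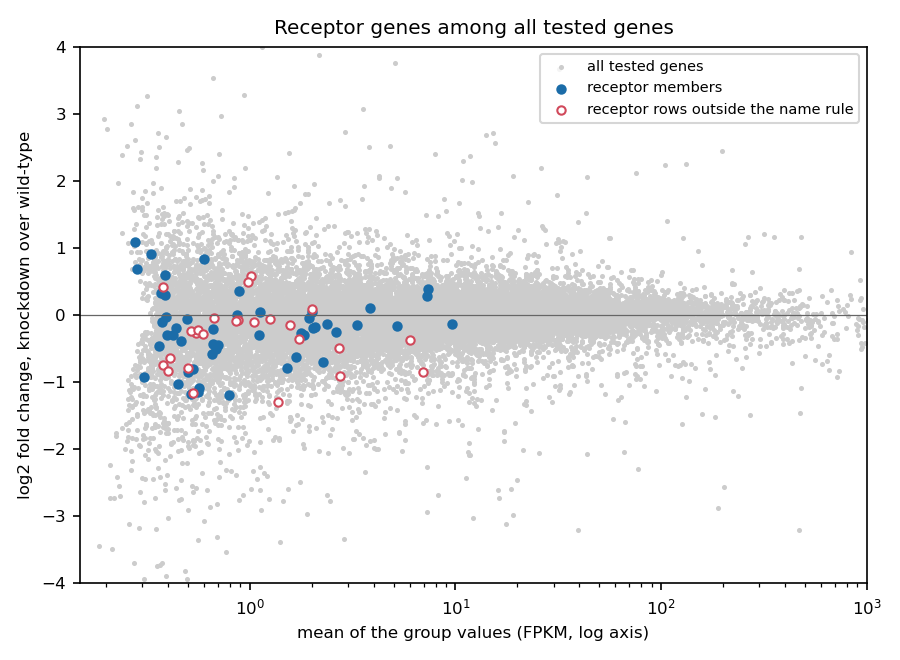
Log2 fold change of knockdown over wild-type against the mean of the group values in FPKM on a log axis, with all tested genes in grey, receptor members filled and the 25 receptor rows outside the name rule open. Receptor genes lie within the cloud of tested genes, and the spread narrows from left to right; genes beyond a log2 fold change of 4 or outside the plotted range of FPKM are not drawn.

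The proteins that make, carry and anchor the receptors' ligands put these levels in context. In the glutamate list 34 rows were tested and none was called; the vesicular glutamate transporter gene slc17a6b was at 16.0 and 16.4 FPKM and slc17a6a at 6.83 and 7.03 FPKM. The neuronal pentraxin gene nptx1l, whose product clusters AMPA receptors, was at 3.55 FPKM in wild-type cells and 1.42 FPKM in the knockdown, which was not called (authors' deposited table, q of 0.0986). The glial glutamate transporter gene slc1a3b, also one of the glia markers, was at 7.20 and 3.67 FPKM (authors' deposited table, p of 0.00465 and q of 0.32). The most abundant members of the list were the glutamine synthetase gene glulb, at 268 and 272 FPKM, and the transporters slc1a2b, at 45.5 and 40.1 FPKM, and slc1a3a, at 44.1 and 40.8 FPKM.

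For GABA and glycine 22 rows were tested, none was called and none had an unadjusted p under 0.05. The median log2 fold change was -0.07. The genes of GABA synthesis and packaging were all tested, with the glutamate decarboxylase genes gad1b at 4.71 and 3.66 FPKM and gad2 at 2.68 and 2.92 FPKM and the vesicular transporter gene slc32a1 at 2.39 and 3.41 FPKM. The neuronal glycine transporter gene slc6a5 was listed at 0.0055 FPKM in wild-type cells and at 0 in the knockdown and was not tested. The highest rows of the list were GABARAP (1 of 2), at 289 and 276 FPKM, gabarapa and shmt1, whose products are not confined to these synapses.

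For acetylcholine 9 rows were tested and none was called. The synthesis and vesicle genes chat and slc18a3a were listed under 0.05 FPKM and were not tested, whereas the breakdown enzyme gene ache was at 4.36 and 5.11 FPKM. The row with the smallest p was lypd6, whose product binds nicotinic receptors and also acts in Wnt signalling, at 7.68 and 4.60 FPKM (authors' deposited table, p of 0.0372). The highest were tmem35, coding for a chaperone of nicotinic receptors, at 117 and 122 FPKM, and both rows named agrn, at 18.9 and 16.7 FPKM for one row and 11.4 and 11.8 FPKM for the other.

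The monoamine list held the single call among the partner genes. Slc6a2, coding for the transporter that takes noradrenaline back up, fell from 4.81 to 1.97 FPKM, 2.44-fold (authors' deposited table, q of 0.0287). Of 20 tested rows in this list 1 fell and 19 were not called, with a median log2 fold change of -0.17. Over all tested genes 0.332% were called lower and the median was -0.03. Unadjusted p in the authors' deposited table was under 0.05 for 1 row that was higher and 6 that were lower. Over all tested genes these shares were 1.77% and 3.76%. The list was chosen with earlier results of these data known. The serotonin transporter gene slc6a4a was at 0.667 and 0.300 FPKM (authors' deposited table, p of 0.0311). Of the tryptophan hydroxylase genes, for the first step of serotonin synthesis, tph1a was at 0.512 and 0.160 FPKM (authors' deposited table, p of 0.0102). The other tested genes for this step were higher and differed less. Tph1b was at 1.76 FPKM in wild-type cells and 1.17-fold lower in the knockdown (authors' deposited table, p of 0.559). Tph2 was at 1.23 FPKM in wild-type cells and 1.29-fold lower in the knockdown (authors' deposited table, p of 0.380). Tyrosine hydroxylase, th, the first step towards dopamine and noradrenaline, leaned the other way at 1.27 and 2.58 FPKM (authors' deposited table, p of 0.0221). The last enzyme of noradrenaline synthesis, dbh, was listed at 0.174 and 0.172 FPKM and was not tested.

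The most abundant genes of the monoamine list make or recycle tetrahydrobiopterin, a cofactor of these hydroxylases, and pteridine pigments draw on the same pathway. Gch2 was at 283 FPKM in wild-type cells and 181 FPKM in the knockdown, PTS at 156 and 92.9 FPKM and sprb at 11.8 and 5.70 FPKM (authors' deposited table, p of 0.017, 0.0101 and 0.0026). None of these was called. The recycling genes qdprb1, at 15.7 and 16.1 FPKM, and qdpra, at 14.2 and 13.6 FPKM, were nearly level. The paralogs gch1, at 4.71 and 4.37 FPKM, and spra, at 5.50 and 6.04 FPKM, differed less. The pigment cell markers, summed above, were lower as well, and their part in these values was not tested.

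**Figure D4:**
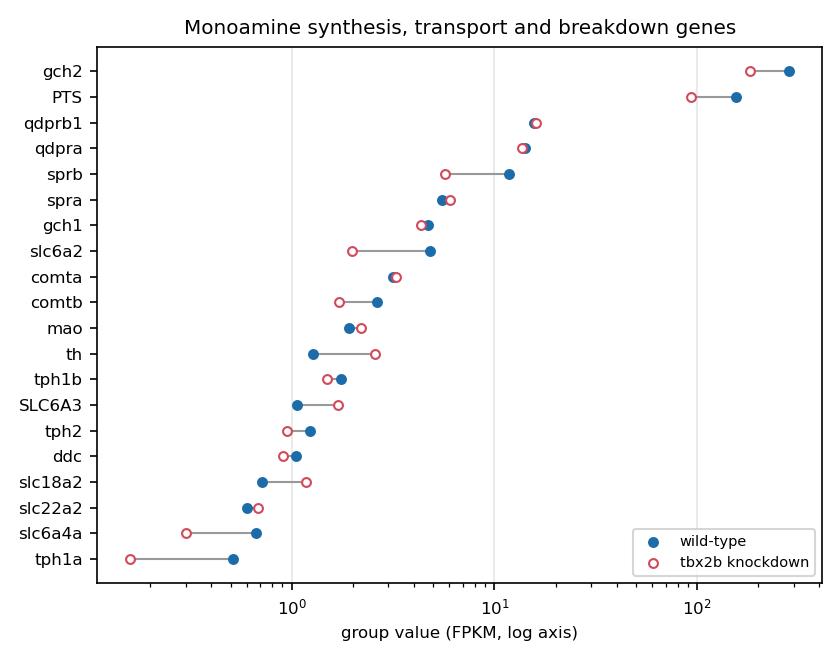
Group values in FPKM on a log axis of the 20 tested genes for monoamine synthesis, transport and breakdown, wild-type filled and knockdown open. The line of slc6a2, the only called gene, runs from 4.81 down to 1.97 FPKM, and th is among the genes whose knockdown value lies to the right of the wild-type value.

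Receptors of other transmitters, which the name rule does not cover, gave no call either. Of 15 tested rows for purine, adenosine, histamine, melatonin, opioid, cannabinoid and further receptors none had an unadjusted p under 0.05, and the median log2 fold change was -0.22. The highest was adora2aa, coding for an adenosine receptor that raises cyclic AMP, at 8.27 and 5.88 FPKM (authors' deposited table, p of 0.127). P2RY11 was at 3.21 and 2.56 FPKM and the cannabinoid receptor gene cnr1 at 2.11 and 1.81 FPKM.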

How the data were processed

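RNA sequencing of 8 libraries in 2 groups of 4 was read from 1 deposited table of the authors. The submitters' processing notes name the Zv9 build, Cuffdiff, TopHat2 and Bowtie2, beside Trimmomatic 0.32, FastQC 0.10.0 and CASAVA 1.8.2. Their settings, the annotation and the way technical replicates were combined were not given in the sources used here. For each gene and group the authors deposited 1 FPKM value, the log2 fold change, a test score, and the p-value and q-value, per the file headers. Adjusting the deposited p by Benjamini-Hochberg over the tested genes gave the deposited q within 5.2e-07.

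Log2 fold changes were recomputed from the group values with no pseudocount in Python 3.11.15 and pandas 2.3.3, and checked on simulated data. Counts and medians are descriptions, and no test was run here. Tested genes listed at 0 in a group have no log2 value and are left out of medians and of counts by sign. They stay in the total for shares by fold, where they count as not reaching the fold. Depth is unknown. Summed levels of marker lists cover all matched rows. FPKM depends on all other RNAs sampled. Of partner list names, 45 of 57 (glutamate), 26 of 31 (GABA and glycine), 13 of 25 (acetylcholine), 24 of 25 (monoamines) and 34 of 44 (other receptors) were matched, some through a table of gene names. Members and lists were chosen with earlier results of these data known. Genes were named by a rule: members called or with p under 0.05, the 4 highest and the 2 widest folds per class (the latter at 1 FPKM or more), muscle subunits, the kinase, and of partner lists those called, with p under 0.05 or among the 3 highest. Some genes the rule names are not reported here. Others were named after their values were seen. Classes of under 4 genes are given by gene. Coordinates are those of the file.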

Additional observations from a re-analysis of the deposited data

How the results depend on the processing

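No paired analysis was possible because 1 value per gene and group was deposited. Fits without single libraries or with the leading number of the titles as a replicate block could not be run for the same reason. Still 0 members were called higher and 0 lower at a q under 0.10, with any letter case and, an alternative chosen after seeing the data, with names from the table of gene names added. The stricter q, fold and level settings and those that leave out rows can give no more than 0 and so say nothing of stability. The share of members above 0 was 28%, 24.3% with any letter case, 24% with the added names, 24.3% without rows sharing a locus, 25% at a mean of 1 FPKM or more, and 36% on TPM. A pseudocount cannot change it. Rescaling to TPM shifted each median by 0.11, to -0.092 over all members, -0.043 for AMPA, -0.19 for NMDA, -0.23 for GABA-A and rho, 0.064 for neuronal nicotinic, -0.081 for serotonin, 0.048 for adrenergic (from -0.06) and -0.84 for dopamine receptors. It also turned adra2b to 0.048, chrnb2b to 0.064, drd4-rs to 0.080 and htr1ab to 0.0016. On log2(FPKM + 1) the medians shrank to -0.084 for NMDA, -0.15 for GABA-A and rho and -0.29 for dopamine receptors, and on log2(FPKM + 0.1) to -0.77 for dopamine receptors, as a pseudocount does for low genes. With a mean of 1 FPKM or more the NMDA median was 0.10, from grin1a alone. Without rows sharing a locus the medians were -0.50 for GABA-A and rho and -0.55 for serotonin receptors, over fewer genes.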
